A study of Tribolium castaneum with 2 samples.

Results

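The X chromosome of the red flour beetle, *Tribolium castaneum*, is listed in the deposited files as linkage group ChLGX. Every reference gene with a TC identifier on ChLGX was taken, which gave 798 X genes of 16542 TC genes in all. They were set against the 13663 genes of the 9 other linkage groups, ChLG2 to ChLG10, and 2081 genes that the files place on no linkage group were left out of that comparison. Position alone decided which genes were members, but the chromosome and the rules were chosen with earlier results of these data known.

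RNA-seq libraries TC2 and TC1 were each made from wild type last-instar larvae, 20 days after oviposition. The labels of both carry the same text: larvae were kept 20 to a bottle, and a gas mixture of 2% O2, 18% CO2 and 80% N2 was delivered to the bottle. That text gives neither library a condition. A legend in the supplement of the study calls TC1 the control and TC2 the hypoxia-treated group, and larvae of both were collected after 12 h (of normoxia or of hypoxia with raised CO2), but this was not used to form groups, and ratios are therefore given as library TC2 over library TC1. Each library was a pool of whole larvae and neither has a replicate, so no test of a difference between them was possible, and genes of one library are not replicates of each other.

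Sex in *T*. *castaneum* is set by an XY system: males carry a single X beside a small Y, and females carry a pair of X chromosomes. Many animals with such a system adjust the output of X genes so that the sexes match, which is called dosage compensation. The sex of the pooled larvae is not given in the labels, so the number of X copies per autosome behind the levels below is not known, and X copy number and output per copy cannot be told apart. In pools of whole larvae, fewer cells of a type and less RNA per cell cannot be told apart either.

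The value of a gene is its FPKM (a fragment count scaled to transcript length and to the mapped fragments of the library), summed over the reference transcript and the transcripts that Cufflinks assembled on the same strand over its exons. An assembled transcript that overlapped the exons of several genes was counted only for the gene with which it shared the most exonic bases. In a transcript of 1 kb, 1 FPKM stood for about 8.32 fragments in TC2 and 7.42 in TC1. A value of 0 in these files can be a failed estimate as well as a lack of reads, so such genes are described as listed at 0. Where a transcript joined neighbouring genes, a gene could also stand at 0 because that transcript was counted for its neighbour.

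X genes were expressed more often than the genes of any other linkage group. At 1 FPKM or more stood 553 X genes (69.3%) in TC2 and 558 (69.9%) in TC1. The shares on ChLG2 to ChLG10 together were 58.3% in TC2 (7964 genes) and 60.5% in TC1 (8260 genes), which left the X higher by 11.0 and 9.47 percentage points. Over the 9 other linkage groups the share ran from 55.6% (ChLG3) to 61.7% (ChLG6) in TC2, and from 57.0% (ChLG3) to 64.5% (ChLG6) in TC1. Both libraries held 531 of the X genes at this level, TC2 alone held 22 and TC1 alone held 27.

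Fewer X genes were listed at 0. They made up 24.3% of the X genes in TC2 and 24.6% in TC1, against 28.3% to 35.2% in TC2 and 25.2% to 34.4% in TC1 on the other linkage groups. Listed at 0 in both libraries were 169 X genes (21.2%), against 22.0% to 30.6% elsewhere, so the X stood just outside the range of the others. Another 66 X genes had a mean over both libraries below 1 FPKM, and 563 passed this filter. All ratios below are over those 563.

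Among the genes that passed, the median level was also highest on the X. It was 22.4 FPKM in TC2 and 25.3 FPKM in TC1 for X genes, and 17.2 and 19.2 FPKM for genes of ChLG2 to ChLG10, a log2 difference of 0.38 in TC2 and 0.40 in TC1. The next linkage group, ChLG9, had 21.8 FPKM in TC2 and 24.1 FPKM in TC1, so the X led it by little compared with the spread of the others, which went down to 13.8 FPKM (ChLG4, TC2) and 15.4 FPKM (ChLG3, TC1). The 9 other medians had an SD of 0.22 on the log2 scale in each library. Without the filter, the median over all X genes was 9.14 FPKM in TC2 and 10.8 FPKM in TC1, and no other linkage group went above 4.29 FPKM in TC2 or 5.34 FPKM in TC1.

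**Figure D1:**
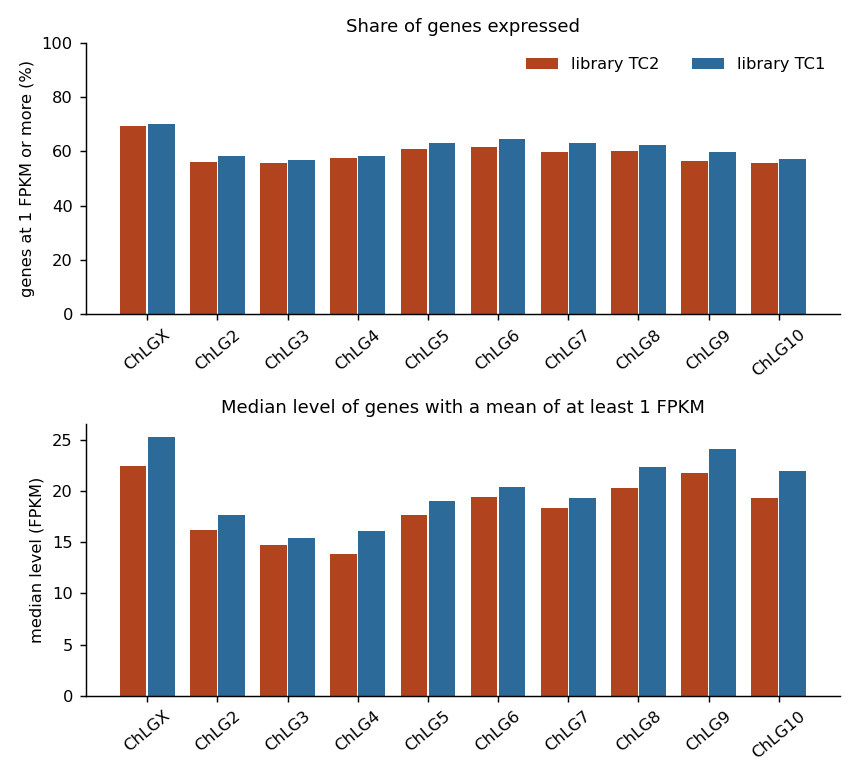
Share of genes at 1 FPKM or more (upper plot, percent) and median FPKM of the genes that passed the filter of 1 FPKM (lower plot) for each linkage group, with 1 bar for library TC2 and 1 for library TC1. The X has the tallest bars in both plots: 69.3% and 69.9% of its genes were expressed, and its medians of 22.4 and 25.3 FPKM stand just above those of ChLG9.

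The X exceeded the other linkage groups in the low and middle part of the range and not at its top. The 25th percentile of the filtered X genes was 6.85 FPKM in TC2 and 8.57 FPKM in TC1, against 4.81 and 5.82 FPKM on ChLG2 to ChLG10. At the 90th percentile the order turned, with 149.7 and 142 FPKM on the X and 172 and 171 FPKM on the others. X genes at 10 FPKM or more made up 49.0% in TC2 and 51.5% in TC1, against 37.7% and 39.3% elsewhere, and at this threshold no other linkage group went above the X. At 500 FPKM or more stood 2.01% of X genes in TC2 and 1.75% in TC1, against 2.55% and 2.48% on ChLG2 to ChLG10. No X gene reached 5000 FPKM, whereas 28 genes of the other linkage groups did in TC2 and 21 did in TC1. The mean over all X genes was not among the highest, at 66.0 FPKM in TC2 and 66.8 FPKM in TC1: 8 and 7 of the 9 other linkage groups had a higher mean.

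**Figure D2:**
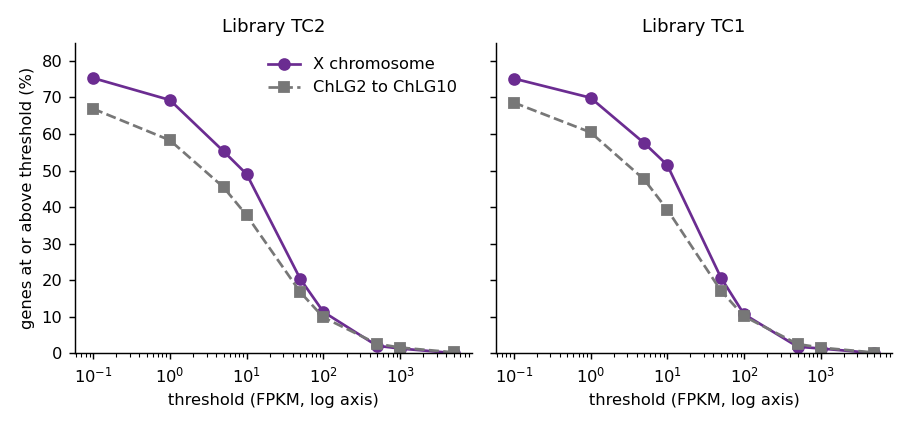
Percentage of genes at or above each FPKM threshold (log axis) in library TC2 (left) and library TC1 (right), for X genes and for genes of ChLG2 to ChLG10. The X lies above the others up to 100 FPKM and below them at 500 FPKM and higher.

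The 3 most abundant X genes carry identifiers for which neither the files nor the study give a name. TC004646 (ChLGX 5470014-5470571, 2 exons) had 4075 FPKM in TC2 and 4767 FPKM in TC1. TC010830 (ChLGX 6488436-6489809, 5 exons) had 3554 FPKM in TC2 and 3492 FPKM in TC1. TC004676 (ChLGX 88838-100463, 17 exons) had 2678 FPKM in TC2 and 3242 FPKM in TC1, all of it from assembled transcripts, since its reference transcript was listed at 0 in both libraries. Their log2 ratios were -0.23, 0.03 and -0.28, and none was called. Every other linkage group had a gene above the highest X gene, up to 39745 FPKM in TC2 and 57186 FPKM in TC1 on ChLG7.

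The X held a larger share of genes with many exons than any other linkage group. Genes with 7 or more exons made up 29.8% of the X, against 15.3% (ChLG8) to 23.4% (ChLG10) of the other linkage groups, and single-exon genes made up 12.3%, against 12.1% (ChLG10) to 17.3% (ChLG8). The median X gene had 4 exons, as on ChLG5 and ChLG10 and against 3 on the other 7 linkage groups, 1114.5 exonic bases and a span of 2598 bases. The genes stood at 73.4 per Mb, between ChLG3 at 51.5 and ChLG4 at 110 per Mb.

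The difference in the share of expressed genes varied with exon number. Of the 233 X genes with 4 to 6 exons, 84.1% were at 1 FPKM or more in TC2 and 82.0% in TC1, against 69.5% and 71.8% on ChLG2 to ChLG10. Of the 238 X genes with 7 or more exons, 88.2% and 90.8% were, against 78.4% and 79.8%. No other linkage group went above the X in either class. Of the 229 X genes with 2 to 3 exons, 115 (50.2%) were expressed in TC2 and 117 in TC1, against 2375 (48.0%) and 2474 of the 4950 such genes elsewhere, and 2 of the 9 other linkage groups went above the X in each library. Among the 98 single-exon X genes the order was the opposite one, with 32.7% and 34.7%, against 36.3% and 39.6%, and 7 of the 9 other linkage groups went above the X in each library. When ChLG2 to ChLG10 were given the exon classes of the X, the difference in share was 7.39 points in TC2 and 5.95 points in TC1.

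The difference also varied with transcript length. X genes with less than 600 exonic bases were expressed in 33.2% of cases in TC2 and 30.8% in TC1, against 33.2% and 34.4% elsewhere. Of the 214 X genes with 600 to under 1200 exonic bases, 73.4% were expressed in TC2 and 74.3% in TC1, against 60.0% and 63.1%. Of the 181 X genes with 1200 to under 2000 exonic bases, 162 (89.5%) were expressed in TC2 and 165 (91.2%) in TC1, against 2227 (72.9%) and 2290 of the 3053 such genes elsewhere. Those with 2000 exonic bases or more were expressed in 85.4% and 88.0% of cases, against 78.2% and 80.3%, so the lead was widest at 1200 to under 2000 exonic bases. In none of the 3 classes from 600 exonic bases up did another linkage group go above the X.

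**Figure D3:**
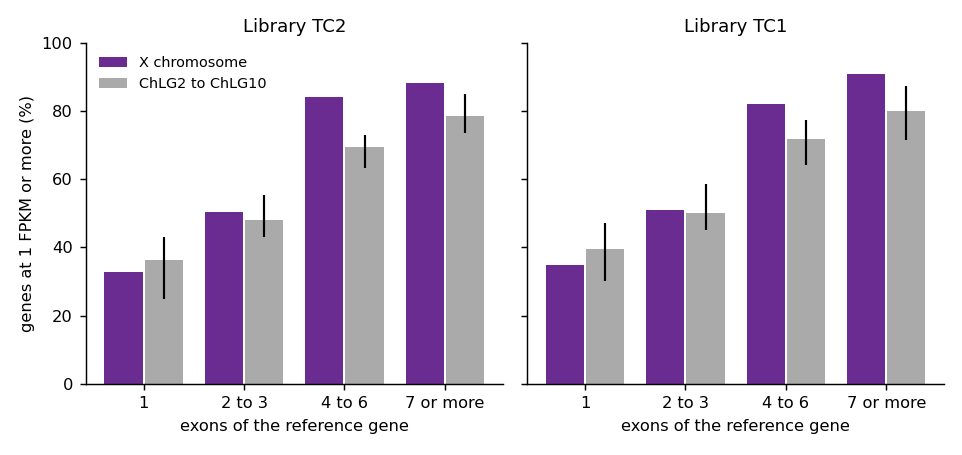
Percentage of genes at 1 FPKM or more by number of exons in the reference gene, for X genes and for ChLG2 to ChLG10, in library TC2 (left) and library TC1 (right), where lines span the lowest and highest of the 9 other linkage groups. The X lies above all 9 in the classes of 4 to 6 and of 7 or more exons, and within their range in the others.

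Assembled transcripts carried 40.8% of the summed FPKM of X genes in TC2 and 43.0% in TC1, against 21.7% to 42.0% and 22.8% to 40.1% on the other linkage groups. Of 533 assembled transcripts on the X in TC2 and 558 in TC1, 489 and 519 could be given to a gene, and those left over held 1.13% and 0.950% of the FPKM on the X. By the reference transcript alone, the X led in the share of expressed genes by 7.34 points in TC2 and 5.39 points in TC1.

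Between the libraries, the share of X genes that differed was near that of all genes. A gene was called higher or lower where TC2 and TC1 differed at least 1.5-fold, after 0.1 FPKM was added to both, and the intervals that Cufflinks gives for each value did not overlap. Those intervals cover counting and assignment error and not the spread between animals. Their median half-width was taken over X genes at 5 FPKM or more in the library (441 in TC2, 459 in TC1). It was 11.1% of the value in TC2 and 12.0% in TC1. X genes at lower levels were left out of these medians, and their intervals could be wider, as for TC004689 in TC2 (4.87 FPKM, 3.05 to 6.68). By this rule 39 of 563 X genes (6.93%) were higher in TC2 than in TC1, against 7.42% of all 9649 genes that passed the filter and 7.5% of those on ChLG2 to ChLG10. Lower in TC2 were 63 X genes (11.2%), against 11.9% of all genes and 12.1% of those on ChLG2 to ChLG10. Both shares on the X were near this background and within the range of the 9 other linkage groups, which was 6.03% to 8.27% for higher genes and 8.77% to 14.6% for lower ones.

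The median log2 ratio of X genes was -0.070, just above those of the other linkage groups, which lay between -0.129 (ChLG10) and -0.073 (ChLG4). The median over all genes was -0.10, and when ratios were centred on it 48 X genes (8.53%) were higher and 56 (9.95%) were lower in TC2, against 8.87% and 10.7% of the genes on ChLG2 to ChLG10. The median size of the log2 ratio, without its sign, was 0.295 on the X and 0.297 to 0.365 elsewhere.

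Of the called X genes, 31 higher and 52 lower ones were above 0 in both libraries. Among genes above 0 in both that passed the filter, these were 5.74% and 9.63% of 540 X genes, against 5.86% and 9.54% on ChLG2 to ChLG10. The counts by size and by reference transcript that follow were made for the X alone. The higher ones had a median log2 ratio of 0.90 (0.60 to 2.56), and 11 of them differed at least 2-fold. The lower ones had a median log2 ratio of -1.06 (-5.36 to -0.59), and 27 of them differed at least 2-fold, 5 at least 4-fold. Of these 83 genes, 52 had a reference transcript above 0 in both libraries, and by that transcript alone the ratio had the opposite sign for 8 of the higher and 8 of the lower ones. The remaining 8 of 39 higher and 11 of 63 lower calls on the X rested on a value listed at 0 in the other library. On ChLG2 to ChLG10, 165 of 626 higher and 256 of 1006 lower calls did. A transcript joining neighbouring genes had been assembled at 8 of the 19 X genes called on a listed 0, against 7.82% of the 563 X genes that passed the filter. Such a transcript was counted for a single gene, which can itself leave its neighbour at 0, so this excess is partly built into the gene values.

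**Figure D4:**
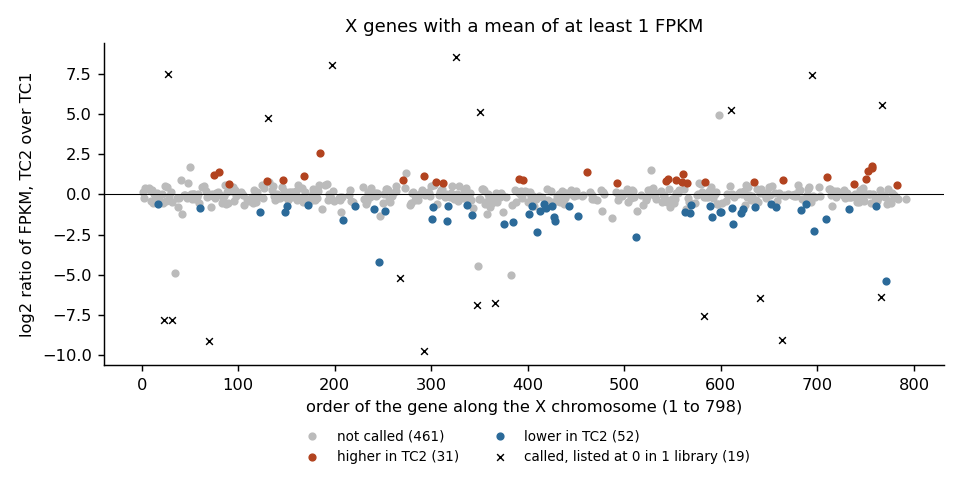
Log2 ratio of FPKM, TC2 over TC1 with 0.1 FPKM added to both, for the 563 X genes above the filter, in their order along the chromosome. Each point is a gene: 31 were higher and 52 lower in TC2, crosses mark the 19 calls on a value listed at 0, whose height is set by the added 0.1 FPKM, and 461 genes were not called, among them a few large ratios with overlapping intervals.

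Expressed genes were found along the whole chromosome. In windows of 1 Mb the share of genes at 1 FPKM or more in TC2 ran between 58.2% in the fourth window and 78.2% in the third, and in TC1 between 58.2% in the fourth and 79.3% in the first. Higher and lower genes were interspersed: 10 of the 11 windows held both, and the fourth held 4 lower and 0 higher genes. The ninth window held the most lower genes, 14 of its 70 that passed the filter beside 4 higher ones. Over the whole X 11.2% of such genes were lower, and over all genes 11.9%. Windows were not made on the other linkage groups, so how often a window there holds as many is not known. Higher genes outnumbered lower ones in the second, the third, the eighth and the eleventh window.

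Neighbours on the X were both called in 14 cases. Both were higher in TC2 in 3 pairs, both were lower in 5 and they went opposite ways in 6, so that 57.1% moved the same way, against 57.6% of 269 such pairs on ChLG2 to ChLG10. A value listed at 0 stood behind 4 of the 6 opposite pairs and 1 of the 3 pairs in which both were higher, and 2 of the opposite pairs held a gene with a joining transcript. Without values listed at 0, 2 pairs were both higher, 5 both lower and 2 opposite.

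Names were at hand for 6 X genes, all of them from the study's list of differentially expressed genes. That list was drawn up on the same libraries, so their differences are given as values and are not independent evidence of a direction. Of its 333 genes, 18 (5.41%) lie on the X, which holds 4.82% of all TC genes and 5.83% of those that passed the filter. By the rule used here, 9 of the 18 were called higher and 8 lower in TC2, and 1 was not called.

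Branchless stands for a pair of X genes. In *Drosophila*, Branchless is the fibroblast growth factor that guides the branching of tracheae, the tubes that carry air to insect tissues, and it is made by cells that lack oxygen. TC001705 (ChLGX 10480258-10495048, minus strand, 4 exons) had 20.2 FPKM in TC2 and 5.90 FPKM in TC1. Its log2 ratio was 1.76 (1.06 to 2.46, the range that 2 standard errors of counting and assignment allow). All of this came from assembled transcripts, since the reference transcript was listed at 0 in both libraries. TC001760 (ChLGX 10504610-10510431, plus strand, 2 exons) had 25.1 FPKM in TC2 and 7.87 FPKM in TC1, with a log2 ratio of 1.66 (1.13 to 2.19). These genes are neighbours on opposite strands, 9561 bases apart with their starts facing each other, and form 1 of the 3 pairs in which both were higher.

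BNIP3, in mammals a mitochondrial protein that takes part in the removal of mitochondria and in cell death and whose gene is a target of the hypoxia-inducible factor, is TC010884 (ChLGX 7637534-7638341, plus strand, 3 exons). It had 584 FPKM in TC2 (552 to 616) and 343 FPKM in TC1 (319 to 367), which places it as number 16 of the X genes by level in TC2 and number 23 in TC1. Its log2 ratio was 0.77 (0.64 to 0.90). This direction rested on the assembled transcript: the reference transcript held 24.3% of the FPKM in TC2 and 56.1% in TC1, and taken alone had 142 FPKM in TC2 and 192 FPKM in TC1, a log2 ratio of -0.44. The next gene along, 1253 bases away on the same strand and without a name, had 51.0 FPKM in TC2 and 20.8 FPKM in TC1, a log2 ratio of 1.29.

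The dual specificity MAP kinase phosphatase, of a family that switches MAP kinases off by removing phosphate from them, is TC010766 (ChLGX 7656837-7664697, minus strand, 3 exons). It had 151 FPKM in TC2 and 92.5 FPKM in TC1, with a log2 ratio of 0.71 (0.56 to 0.86) that was 0.77 by the reference transcript alone.

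The other named X genes were lower in TC2. Serine protease P53, whose family cuts proteins and includes digestive trypsins, is TC004635 (ChLGX 5658165-5660834, minus strand, 6 exons). It had 2.46 FPKM in TC2 and 12.6 FPKM in TC1, with a log2 ratio of -2.31 (-2.88 to -1.73). The dihydrodiol dehydrogenase/D-xylose 1-dehydrogenase, an oxidoreductase of carbohydrate metabolism, is TC014229 (ChLGX 4507759-4508910, plus strand, 4 exons). It had 12.4 FPKM in TC2 and 29.7 FPKM in TC1, with a log2 ratio of -1.26 (-1.67 to -0.85).

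**Figure D5:**
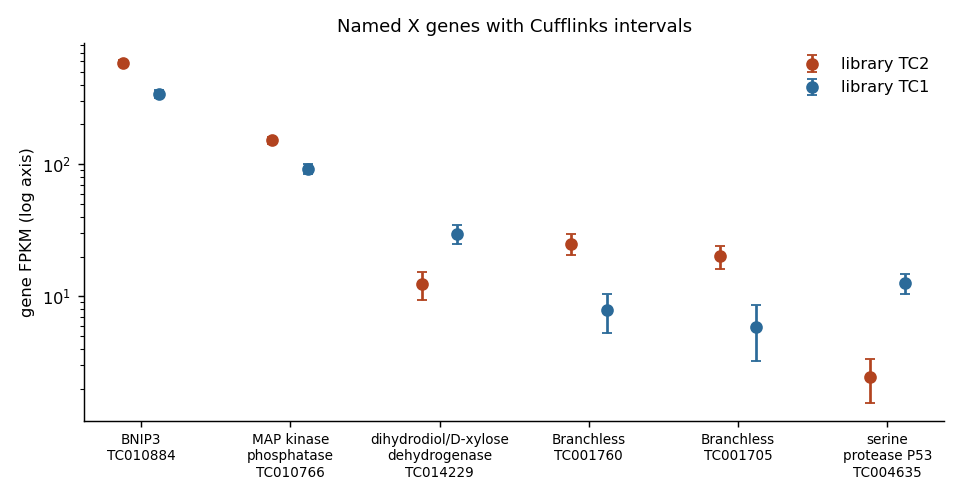
Gene FPKM (log axis) of the 6 named X genes in library TC2 (left point of each pair) and library TC1 (right point), with the intervals from Cufflinks as bars. TC2 lies above TC1 for BNIP3 (584 and 343 FPKM), the MAP kinase phosphatase and both Branchless genes, and below it for the dehydrogenase and the serine protease (2.46 and 12.6 FPKM).

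Among the X genes without a name, the most extreme calls at a mean of 5 FPKM or more rested on values listed at 0. TC014219 (36.3 FPKM) and TC030077 (26.4 FPKM) were above 0 in TC2 and listed at 0 in TC1, and a transcript joining each of them to a neighbour had been assembled. Such a transcript was counted for a single gene, so these values of 0 can come from that rule, which was not tested. TC011518 was listed at 0 in TC2 and had 55.6 FPKM in TC1. TC014206, a single reference exon of 249 bases, was listed at 0 in TC2 and had 82.8 FPKM in TC1. All of this came from an assembled transcript, since the reference transcript of TC014206 was listed at 0 in both libraries. TC014206 lies inside the span of a gene on the other strand, with which it shares no reference exonic bases. That gene had 1594 FPKM in TC2 and 710 FPKM in TC1, also from assembled transcripts alone. The library kit does not mark strand, so reads of overlapping genes on opposite strands cannot be told apart. Among genes above 0 in both libraries, the lowest ratio was that of an unnamed gene of 8 exons with 0.472 FPKM in TC2 and 23.4 FPKM in TC1 (log2 ratio -5.36), and the highest that of an unnamed gene of 6 exons with 49.8 FPKM in TC2 and 8.36 FPKM in TC1 (log2 ratio 2.56). The direction of the last one rested on assembled transcripts, as for BNIP3: its reference transcript held 6.47% of the FPKM in TC2 and 81.6% in TC1, and taken alone had 3.22 FPKM in TC2 and 6.82 FPKM in TC1, a log2 ratio of -1.06. Its exons also overlap those of a gene on the other strand, TC004156, which was listed at 0 in both libraries.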

How the data were processed

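The authors deposited 1 Cufflinks transcript table for each of libraries TC2 and TC1, with FPKM, its lower and upper bound and coverage for every reference and assembled transcript, in the attribute text. The deposited score column of these tables was not used. Poly(A) RNA libraries were made with a TruSeq kit that does not mark strand. Not given in the sources used here: the genome build, annotation release, aligner and Cufflinks version. Positions were taken as the files list them. No table of raw counts was analysed here, and depth was read only from the step between low FPKM values.

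The value of a gene summed its reference transcript and the assembled transcripts on its strand that overlapped its exons (Python 3.11.15, pandas 2.3.3). Each assembled transcript was given to a single gene, that with the most shared exonic bases, also where it joined neighbouring genes. Bounds were combined as the root of summed squares. Log2 ratios used a pseudocount of 0.1 FPKM over genes whose mean reached 1 FPKM. The assignment of transcripts was tested on invented transcripts, and the calls on simulated data. Those data had only the error of the Cufflinks intervals, for genes above 0 in both libraries. So this could not show how calls behave under spread between animals or with values listed at 0. Named genes were those to which the study gives a name, the 3 with the highest mean level, and the 2 highest and 2 lowest ratios among unnamed called genes whose mean reached 5 FPKM. The X genes and these rules were chosen with earlier results of these data known. Of 798 X identifiers, 0 matched the reference gene table at hand. Another pseudocount, filter, threshold, gene value and centring were tried, as were settings without genes that share transcripts or lie antisense.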

Additional observations from a re-analysis of the deposited data

How the results depend on the processing

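Over the alternatives tried, 58 of 70 values of the main comparisons moved by less than the SD of the 9 other linkage groups (for counts of genes, by less than 1.5 times), and 12 moved by more. The X stayed above ChLG2 to ChLG10 in both measures in every alternative tried. Its lead in median log2 level went to 1.52 in TC2 and 1.44 in TC1 without a filter, where genes listed at 0 enter the medians, and to 0.16 in TC1 at a mean of at least 5 FPKM (0.17 in TC2). Its lead in expressed genes went to 7.34 points in TC2 and 5.39 points in TC1 with the reference transcript alone, to 8.41 points in TC2 at a threshold of 0.1 FPKM, and, in an alternative chosen after seeing the data, to 7.39 points in TC2 and 5.95 points in TC1 with the other linkage groups reweighted to the exon classes of the X. The difference in median log2 ratio was 0.03 as reported and went to 0 without a filter. There, genes listed at 0 in both libraries (21.2% of the X, 26.7% of ChLG2 to ChLG10) enter the medians with a ratio of exactly 0. That setting therefore says little about the difference. With the reference transcript alone 71 of 456 X genes (15.6%) were higher and 75 (16.4%) lower in TC2, against 15.5% and 18.5% on ChLG2 to ChLG10. As reported, these shares were 6.93% and 11.2% on the X and 7.5% and 12.1% on ChLG2 to ChLG10. Of the calls on the X 48.6% were higher, against 38.2% as reported. On ChLG2 to ChLG10 this was 45.5%, against 38.4% as reported. The ratio of BNIP3 turned to -0.44. The cause of these changes was not tested. At a fold of 2, 19 X genes (3.37%) were higher and 38 (6.75%) lower by the stricter rule itself, against 4.48% and 7.38% on ChLG2 to ChLG10. The other 2 settings chosen after seeing the data, without antisense overlaps and with assembled transcripts of no stated strand, moved no main value past these limits. With 1 library of each kind there was no replicate to leave out. No paired analysis was possible because the labels give no replicate numbers. Values listed at 0 and the lack of replicates limit every ratio above.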

Other observations

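Genes that the files place on no linkage group stood apart from those of the X. Of these 2081 genes, 34.5% were at 1 FPKM or more in TC2 and 35.6% in TC1, and 47.9% and 46.9% were listed at 0. Whether any of them belong to the X is not given in the files.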
